A study of Mus musculus with 37 samples.

Results

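The genes described here regulate passage from G1 into S phase of the cell cycle: the G1 cyclins Ccnd1, Ccnd2, Ccnd3 and Ccne1, the cyclin-dependent kinase inhibitors Cdkn1a, Cdkn1b, Cdkn1c and Cdkn2c, the transcriptional regulator Id2 and the transcription factor Myc. A gene was taken where a probe set of the array carried its symbol and no other, and the probe set with the highest mean was used where a gene had several. This gave 9 of the 10 listed genes, among 19937 genes with such a probe set on the array. Cdkn1a shares its probe set with another symbol and has no value here. All 9 were above the 25th percentile of the data (a log2 intensity of 4.96) in 37 of 37 arrays and were among the 16865 genes tested.

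The values come from whole mammary glands of female FVB mice that were wild type (PTP1B WT) or deficient for the tyrosine phosphatase PTP1B (PTP1B-/-, written KO), whose gene is Ptpn1. The mutant allele had been backcrossed to FVB for 7 or more generations, mice were mated at 12 weeks of age, and no treatment was given. Glands were taken from nulliparous mice in oestrus, scored by a vaginal plug after a night with a male (P0), or at pregnancy day 3, 7, 10 or 15 (P3 to P15). There were 4 WT and 4 KO arrays from nulliparous glands, 3 and 3 from day 3, 4 and 5 from day 7, 3 and 3 from day 10, and 4 and 4 from day 15. The labels name no tissue-specific promoter or Cre for the mutation, and do not say whether the arrays of a group came from separate animals, so p-values measure only the spread between these arrays, which may be technical.

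In G1, cyclins of the D type bind Cdk4 and Cdk6 and cyclin E binds Cdk2, and these kinases phosphorylate the Rb proteins and release the E2F factors that switch on genes of DNA synthesis. Inhibitors of the Cip/Kip family (Cdkn1a, Cdkn1b, Cdkn1c) act on several cyclin-kinase complexes, and those of the Ink4 family, to which Cdkn2c belongs, bind Cdk4 and Cdk6. Myc induces growth and cell cycle genes, while Id2 binds basic helix-loop-helix factors and keeps them from DNA, and mice without Ccnd1 or without Id2 fail to form a full set of milk-producing alveoli in pregnancy.

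Ptpn1 read 7.90 to 9.06 on the log2 scale in the WT arrays and 5.36 to 6.49 in the KO arrays, except that the array labelled KO P15 replicate 3 read 8.68, a WT level. Other arrays stood apart by marker lists, each summarised as a list score, the mean over the list's genes of the log2 value minus that gene's mean over the 37 arrays. KO P10 replicates 2 and 3 had B lymphocyte scores of 4.22 and 4.13, WT P7 replicate 1 had 1.56, and skeletal muscle scores were 4.63 in WT P0 replicate 4, 4.91 in KO P3 replicate 1 and 2.26 in KO P7 replicate 3. These 7 arrays are called the arrays in doubt. For each call of the 9 genes (defined below) that was lost without them, a value without them is given. Apart from comparisons with KO P10, which then holds 1 array, the other calls held without them. Some of these came closer to the threshold, such as Ccnd1 in WT at P7 against P0 (0.99, limma adjusted p = 0.0455). The epithelial genes Epcam, Krt18, Krt14 and Csn2 and the fat genes Adipoq and Plin1 were above the 25th percentile in 37 of 37 arrays. In such whole-gland RNA, fewer cells of a type and less RNA per cell cannot be told apart.

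The 9 probe sets lie in the following genes of the mouse assembly GRCm38.p6, by RefSeq. Ccnd1 lies at chr7:144929931-144939831, Ccnd2 at chr6:127125162-127152188, Ccnd3 at chr17:47505051-47599689 and Ccne1 at chr7:38097984-38107490. Cdkn1b lies at chr6:134920401-134925525, Cdkn1c at chr7:143458339-143461059 and Cdkn2c at chr4:109660876-109666756. Id2 lies at chr12:25093799-25096092 and Myc at chr15:61985341-61990361. Which exons the probes of a set match was not analysed here, so no value below is assigned to an exon or UTR.

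Promoter windows of 300 bases, from 250 before to 50 after a RefSeq start, were matched for 5 of the 9 genes (Cdkn1b, Cdkn2c, Ccne1, Ccnd3 and Id2). Those of Cdkn2c and Id2 are shown because these genes had the largest fall and the largest rise among the 9 at P15. In capitals is the only match in the 7 windows to the letters searched, the E-box CACGTG, a sequence that Myc and Max can bind. It stands 34 bases past the second of the Cdkn2c starts, in a window with 44% G and C, while the window at the first start has 73.3% and that of Id2 has 63.3%.
Cdkn2c, GRCm38.p6 chr4:109665323-109665622, minus strand: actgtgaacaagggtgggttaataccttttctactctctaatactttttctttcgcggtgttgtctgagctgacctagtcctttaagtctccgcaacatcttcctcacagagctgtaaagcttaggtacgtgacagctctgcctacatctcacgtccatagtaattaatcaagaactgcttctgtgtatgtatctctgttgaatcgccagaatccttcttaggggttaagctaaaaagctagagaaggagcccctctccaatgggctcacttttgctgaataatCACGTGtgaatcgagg
Cdkn2c, GRCm38.p6 chr4:109666707-109667006, minus strand: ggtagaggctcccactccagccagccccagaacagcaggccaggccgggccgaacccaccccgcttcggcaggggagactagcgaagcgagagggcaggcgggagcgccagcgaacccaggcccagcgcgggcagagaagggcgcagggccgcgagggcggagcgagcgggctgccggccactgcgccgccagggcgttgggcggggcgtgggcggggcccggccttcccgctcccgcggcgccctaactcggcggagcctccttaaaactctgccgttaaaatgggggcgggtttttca
Id2, GRCm38.p6 chr12:25096043-25096342, minus strand: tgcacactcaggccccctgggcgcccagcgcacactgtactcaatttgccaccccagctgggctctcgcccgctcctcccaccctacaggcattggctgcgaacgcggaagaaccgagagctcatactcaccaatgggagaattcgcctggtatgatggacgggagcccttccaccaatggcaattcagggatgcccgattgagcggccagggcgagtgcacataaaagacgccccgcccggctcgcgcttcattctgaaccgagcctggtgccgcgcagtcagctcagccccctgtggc

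Both strands were searched for CACGTG, for the E2F letters TTTCGCGC, TTTGGCGC, TTTCCCGC and TTTGCCGC, and for the STAT letters TTCNNNGAA. Of 32851 windows in the table, 7.15% hold CACGTG, 0.323%, 0.514%, 1.07% and 0.441% hold the 4 E2F forms and 8.3% hold the STAT form. A match is a description of the letters in the window, and its absence says only that these letters are not in it.

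Through pregnancy the 9 genes followed separate courses. Id2 and Myc were called higher than at P0 at P3, P7, P10 and P15 in WT glands in the fit of all 37 arrays. In KO glands this held for Id2 at P10 and P15 and for Myc at P7 and P15. Ccnd1 was called higher at every day of pregnancy in WT glands in the fit of all 37 arrays. Ccnd2 and Cdkn2c fell steeply between P10 and P15 in both genotypes. Cdkn1c had its highest mean at P7 in each genotype and was called above P0 at P7 in WT only. Ccnd3 was lower at P15 than at P0 in both genotypes, within a narrow band, and in KO also at P7. Ccne1 and Cdkn1b moved little or at single stages. A gene is called where limma's moderated test, adjusted by Benjamini-Hochberg over all genes tested, gave an adjusted p below 0.05. The 4 comparisons with P0 within a genotype share their P0 arrays and are not independent of each other.

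**Figure D1:**
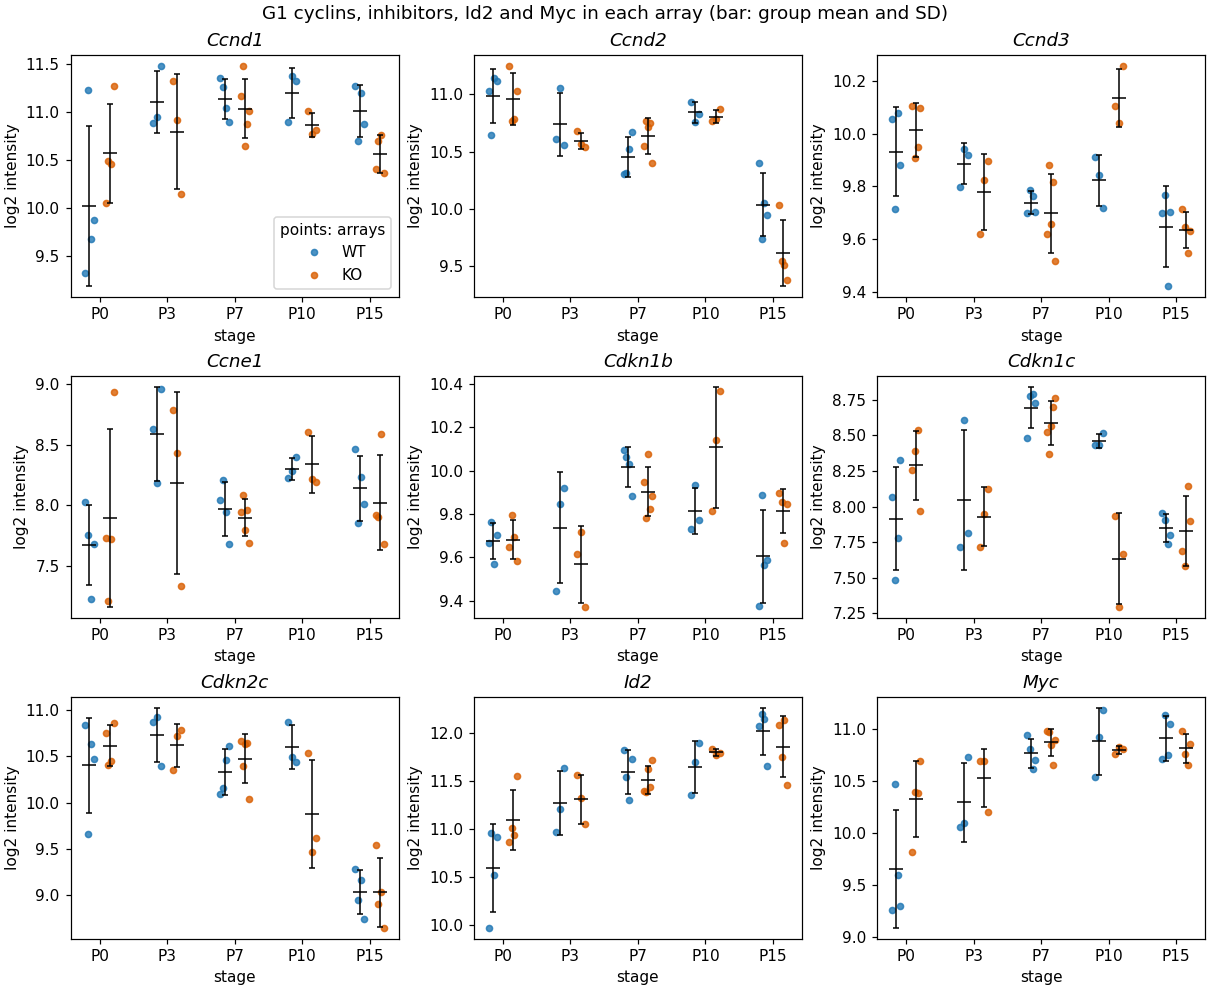
Log2 intensity (y axis) of the 9 genes in each of the 37 arrays, by stage (x axis) and genotype (WT blue, KO orange); points are arrays and bars the group mean with SD. The P15 arrays of Ccnd2 and Cdkn2c sit below those of P10 in each genotype apart from 1 KO array of Cdkn2c, and the Id2 and Myc means at P15 sit above those at P0.

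In WT glands, 4 of the 9 genes were called against P0 at P3, all higher, where 18.1% of all genes tested were called and 11.6% were called higher. At P7, 5 were higher and 1 lower, beside 29.3% of all genes called, 15.5% higher and 13.8% lower. At P10, 4 were higher, beside 21.4% called and 11.7% higher. At P15, 3 were higher and 3 lower, beside 48.8% called, 21.6% higher and 27.3% lower. The P3 count was 0 of 9 without WT P0 replicate 3 (12.8% of all genes called) and 0 without WT P3 replicate 3 (6.36%). Fitted on only the 2 groups compared, limma called 0 of the 9 at P3 (2.83% of all genes) and 0 at P10 (2.65%), while P7 had 5 (23.1%) and P15 had 4 (39.9%). The counts of 4 at P3 and at P10 thus held in the fit of all arrays and not in the fit of the groups compared.

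In KO glands limma called 0 of the 9 at P3, where 18.8% of all genes were called. At P7, 1 was higher and 1 lower, beside 16.2% called, 7.84% higher and 8.34% lower. At P10, 2 were higher and 2 lower, beside 30.7% called, 14.4% higher and 16.3% lower. At P15, 2 were higher and 4 lower, beside 41.3% called, 19.5% higher and 21.8% lower. By unadjusted p below 0.05, limma gave 2 of the 9 in KO glands at P3, beside 5333 of the 16865 genes tested. Arrays at P3, P7, P10 and P15 did not overlap those at P0 for 2, 4, 4 and 4 of the 9 genes in WT, beside 22.3%, 29.4%, 26.4% and 38% of all genes. In KO this held for 2, 2, 4 and 3 of the 9, beside 24%, 15.8%, 27.7% and 39.1%. The median difference of the 9 genes from P0 in WT glands in order of stage was 0.33, 0.34, 0.55 and -0.07, where the medians over all genes tested were -0.03, -0.05, -0.02 and -0.06. In KO glands it was 0.0033, 0.22, 0.30 and -0.01 at these stages, with -0.01, -0.01, -0.05 and 0.01 over all genes.

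**Figure D2:**
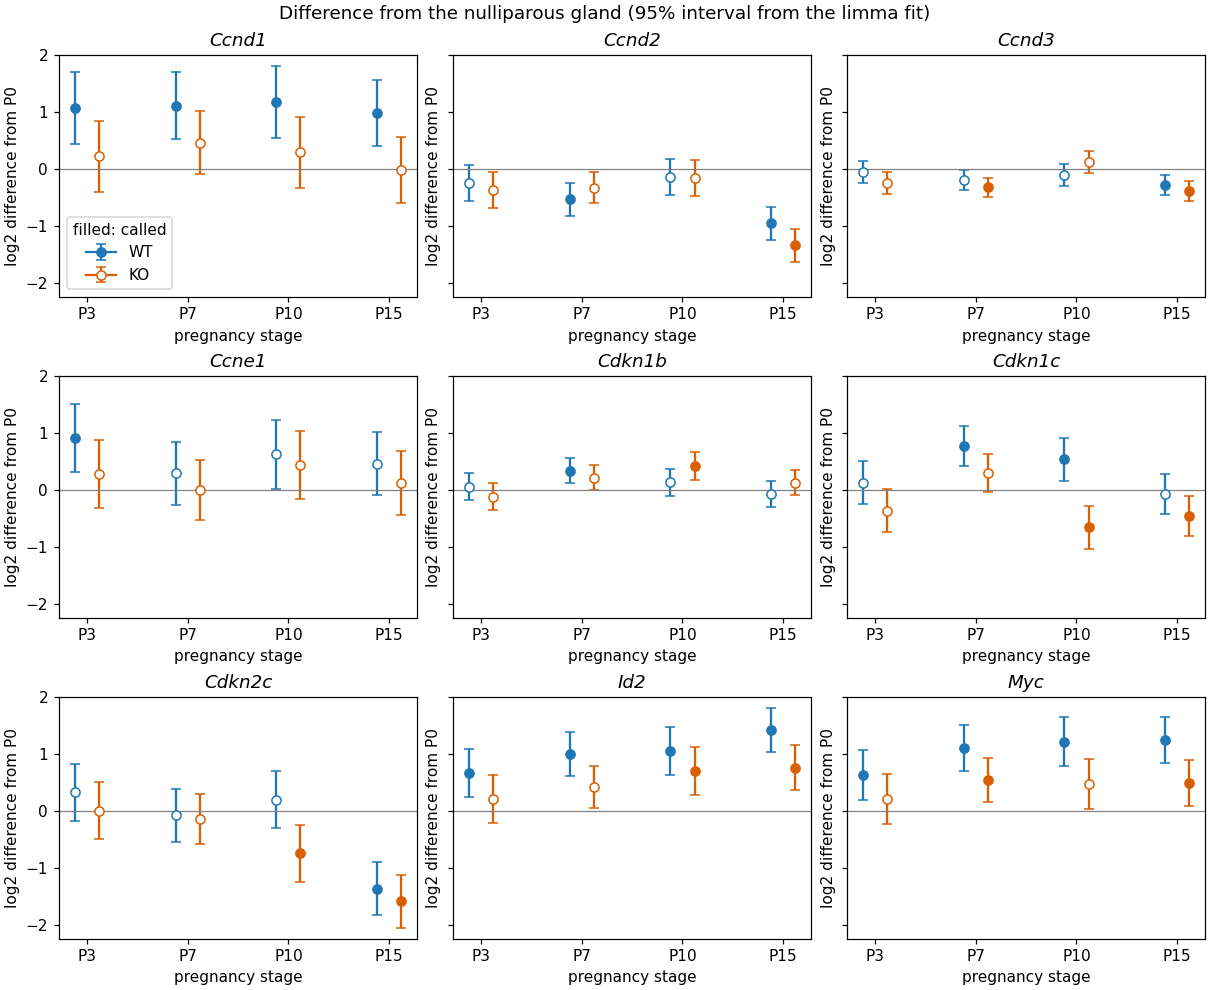
Log2 difference from P0 (y axis) at each pregnancy stage (x axis) for the 9 genes in WT (blue) and KO (orange) glands, with 95% intervals from the limma fit; filled points are called. Ccnd1 is called at 4 of 4 stages in WT and at 0 in KO, and Cdkn2c and Ccnd2 are called lower at P15 in both genotypes.

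Cyclin D1, the product of Ccnd1, is the D cyclin most needed by mammary epithelium. WT glands at P0 read 9.32, 11.23, 9.67 and 9.87, WT glands at P3 read 10.88, 10.95 and 11.48, and those at P7 read 11.36, 11.26, 11.04 and 10.90. The arrays at P10 (10.90, 11.38 and 11.32) and P15 (11.27, 10.69, 11.20 and 10.88) lay in the same range. One P0 array, replicate 2, thus lay among the pregnant arrays and the other 3 lay below all of them, so the groups overlap at every stage. Ccnd1 was higher than at P0 by 1.08 ± 0.31 (SE) at P3 (adjusted p = 0.0142), 1.12 ± 0.29 at P7 (0.00449), and 1.18 ± 0.31 at P10 (0.00806), all by limma, with a fold of 2.17 at P7. By P15 the difference was 0.99 ± 0.29 (limma adjusted p = 0.00486). The P3 call was lost when any of 3 arrays was left out: 0.85 (adjusted p = 0.0681) without WT P0 replicate 1, 0.96 (0.0509) without WT P0 replicate 3 and 0.89 (0.120) without WT P3 replicate 3. None of the 4 calls held in the fit of only the groups compared, where limma's adjusted p in order of stage was 0.177, 0.0553, 0.121 and 0.0530.

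KO glands at P0 read 10.05, 10.49, 10.46 and 11.28 for Ccnd1, above the 3 low WT arrays. At P15 they read 10.41, 10.70, 10.76 and 10.37, inside their own P0 range. The differences from P0 in KO glands were 0.23 ± 0.31 at P3, 0.47 ± 0.27 at P7, 0.30 ± 0.31 at P10, then -0.01 ± 0.29 at P15, with limma adjusted p from 0.262 to 0.984. The 95% interval at P15 ran from -0.59 to 0.57. Whether the genotype difference varied over the 5 stages was tested by limma's F test, which gave an adjusted p of 0.269 for Ccnd1, so the rise in WT is not shown to differ from the change in KO. Without WT P0 replicate 2, the array at 11.23, that test gave 0.0156, the only one of the 37 fits leaving out 1 array in which it was called. With array weights the F test gave an adjusted p of 0.0130.

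Cyclin E1, encoded by Ccne1, activates Cdk2 late in G1. WT glands read 8.03, 7.76, 7.23 and 7.68 at P0 and 8.63, 8.19 and 8.96 at P3, with no overlap. The difference was 0.92 ± 0.29 (limma adjusted p = 0.0288), and it was the only Ccne1 call in the fit of all 37 arrays. It was lost without WT P0 replicate 3 (0.77, adjusted p = 0.0994), without WT P3 replicate 1 (0.90, 0.0679), without WT P3 replicate 3 (0.74, 0.186) and in the fit of only the groups compared (limma adjusted p = 0.0737). In KO glands the arrays spread widely, at 7.73, 7.21, 7.72 and 8.94 at P0 and 8.78, 8.44 and 7.34 at P3, so the lowest P3 array lay within the P0 range.

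Cyclin D2, the product of Ccnd2, was highest at P0 and lowest at P15 in both genotypes. WT glands read 11.03, 10.64, 11.14 and 11.12 at P0, 10.94, 10.76 and 10.83 at P10, and 10.40, 9.74, 10.05 and 9.95 at P15. KO glands read 11.25, 10.77, 10.78 and 11.03 at P0, 10.76, 10.78 and 10.87 at P10, and 10.04, 9.55, 9.51 and 9.38 at P15. In each genotype every P15 array lay below every P0 and every P10 array. Against P0, Ccnd2 fell by 0.95 ± 0.14 in WT (limma adjusted p = 2.47e-06) and by 1.34 ± 0.14 in KO (9.34e-09), folds of 1.93 and 2.52. Most of the fall came between P10 and P15, where it fell by 0.80 ± 0.15 in WT (0.000142) and by 1.18 ± 0.15 in KO (1.08e-06).

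Before P15, Ccnd2 was called once against P0, lower by 0.53 ± 0.14 in WT at P7 (limma adjusted p = 0.00674), where the arrays read 10.31, 10.32, 10.52 and 10.67 and the highest overlapped the lowest P0 array. This difference was -0.43 (adjusted p = 0.0912) without the arrays in doubt. The KO arrays at P3 (10.68, 10.56 and 10.54) and P7 (10.55, 10.76, 10.71, 10.75 and 10.40) lay below every KO P0 array but the differences of -0.36 and -0.32 had limma adjusted p of 0.0986 and 0.105. Centring each array on its median gave calls for both, at -0.45 (0.0382) and -0.42 (0.0301).

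Cyclin D3, the product of Ccnd3, moved within a narrower band, with group means from 9.64 to 10.13. WT glands read 10.06, 9.72, 10.08 and 9.88 at P0 and 9.70, 9.77, 9.42 and 9.70 at P15, and KO glands read 10.11, 9.91, 9.95 and 10.10 at P0 and 9.72, 9.65, 9.55 and 9.63 at P15. The KO groups did not overlap, while in WT 1 P15 array, at 9.77, lay above the lowest P0 array. Ccnd3 fell by 0.28 ± 0.09 in WT (limma adjusted p = 0.00806) and by 0.38 ± 0.09 in KO (0.000715) from P0 to P15. Without WT P15 replicate 3, the array at 9.42, the WT difference was -0.21 (0.0569), in the fit of only the groups compared its adjusted p was 0.0750, and with each array centred on its median it was -0.47 and called. In KO glands it also fell by 0.32 ± 0.08 at P7 (0.00818), was higher at P10 than at P7 by 0.44 ± 0.09 (0.000659), and fell again by 0.50 ± 0.09 from P10 to P15 (0.000128). Without the arrays in doubt, which leaves 1 KO P10 array, the step from P7 to P10 was 0.40 and that from P10 to P15 was -0.44. The 3 KO P10 arrays read 10.10, 10.04 and 10.26, all above the KO P7 and P15 arrays.

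The inhibitor p27Kip1, encoded by Cdkn1b, restrains Cdk2 complexes. WT glands read 9.66, 9.76, 9.57 and 9.70 at P0 and 10.09, 10.06, 10.03 and 9.88 at P7, with no overlap. KO glands read 9.65, 9.80, 9.70 and 9.58 at P0 and 9.81, 10.14 and 10.37 at P10, which lay just above the highest P0 array. Cdkn1b was higher than at P0 by 0.34 ± 0.11 in WT at P7 (limma adjusted p = 0.0201) and by 0.43 ± 0.12 in KO at P10 (0.00681). The P7 call was lost without WT P0 replicate 3 (0.31, 0.0623) and without WT P7 replicate 1 (0.32, 0.0589), and the P10 call without KO P10 replicate 3 (0.30, 0.101). Both were lost without the arrays in doubt (0.33, 0.0570 and 0.13, 0.743) and with the mean of both probe sets (0.30, 0.112 and 0.35, 0.0863). The P10 call was also lost with each array centred on its median (0.26, 0.0528) and in the fit of only the groups compared (0.0775).

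From P3 to P7 in KO glands Cdkn1b was higher by 0.33 ± 0.11 (limma adjusted p = 0.0401), a call lost without KO P3 replicate 1 or 3 or KO P7 replicate 1, 3 or 5. The adjusted p went up to 0.25 without KO P3 replicate 3, where the difference was 0.24, and was 0.0869 without the arrays in doubt. In 3 other settings it was lost as well: all probe sets tested (0.0579), only the groups compared (0.0648) and the mean of both probe sets (0.102). A second, dimmer probe set of Cdkn1b, with values from 5.14 to 6.85, gave 0.25 (0.376) in WT at P7 and 0.27 (0.401) in KO at P10, both not called in the fit of all probe sets. All the Cdkn1b differences here are under 0.5, and the first probe set ranged from 9.37 to 10.37 over the 37 arrays.

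The inhibitor p57Kip2, encoded by the imprinted gene Cdkn1c, had its highest group mean at P7, at 8.70 in WT and 8.58 in KO. WT glands read 8.07, 7.49, 7.78 and 8.33 at P0, 7.72, 8.61 and 7.81 at P3, and 8.48, 8.78, 8.79 and 8.73 at P7. They then read 8.43, 8.43 and 8.52 at P10 and 7.95, 7.91, 7.74 and 7.80 at P15. The P7 and P10 arrays lay above every P0 and every P15 array. Against P0, Cdkn1c was higher by 0.78 ± 0.17 at P7 (limma adjusted p = 0.00134) and 0.55 ± 0.19 at P10 (0.0350), and from P10 to P15 it fell by 0.61 ± 0.19 (0.00943).

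The P10 call against P0 in WT was lost without WT P0 replicate 2 or 3 and without any of the 3 WT P10 arrays, with the smallest difference, 0.40 (adjusted p = 0.0989), without WT P0 replicate 2. It was 0.46 (0.103) after quantile normalisation, and its adjusted p was 0.114 in the fit of only the groups compared. From P3 to P7, Cdkn1c was higher by 0.65 ± 0.19 in WT (limma adjusted p = 0.0235) and by 0.65 ± 0.18 in KO (0.0107). The WT step was lost without WT P3 replicate 1 or 3 or WT P7 replicate 2 or 3, at 0.48 (0.215) without the first of these, and in the fit of only the groups compared (0.0675), and the KO step without KO P3 replicate 1, at 0.55 (0.0638).

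KO glands read 8.26, 8.39, 8.54 and 7.97 for Cdkn1c at P0, 7.72, 7.95 and 8.12 at P3, and 8.52, 8.37, 8.56, 8.70 and 8.76 at P7. They read 7.94, 7.30 and 7.67 at P10 and 7.69, 7.58, 8.14 and 7.90 at P15. The P10 arrays were below every P7 array and below every P0 array. The KO mean was 8.58 at P7 and 8.29 at P0, the arrays of these groups overlapped, and this difference was not called. Cdkn1c fell by 0.95 ± 0.18 from P7 to P10 (limma adjusted p = 0.000224), a call kept when any 1 array was left out but not without the arrays in doubt (-0.65, 0.209), which leaves 1 KO array at P10. It was lower than at P0 by 0.65 ± 0.19 at P10 (0.00773) and by 0.46 ± 0.17 at P15 (0.0308). The P10 call was lost without KO P10 replicate 2 (-0.49, 0.0931), without the arrays in doubt (-0.35, 0.492) and in the fit of only the groups compared (limma adjusted p = 0.0586). The P15 call was lost without KO P0 replicate 2 or 3 or KO P15 replicate 1 or 2, with adjusted p up to 0.111 without KO P0 replicate 3, where the difference was -0.38.

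The inhibitor p18Ink4c, encoded by Cdkn2c, had the largest fall of the 9 genes. WT glands read 10.84, 9.66, 10.63 and 10.47 at P0, 10.87, 10.49 and 10.44 at P10, and 9.29, 8.95, 9.16 and 8.74 at P15. KO glands read 10.75, 10.40, 10.45 and 10.85 at P0, 10.54, 9.47 and 9.61 at P10, and 9.54, 8.90, 9.04 and 8.65 at P15. Every P15 array lay below every P0 array of its genotype. Cdkn2c fell by 1.37 ± 0.23 in WT (limma adjusted p = 1.12e-05) and by 1.58 ± 0.23 in KO (1.45e-06), folds of 2.58 and 3.00.

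In WT the fall of Cdkn2c came after P10, at 1.56 ± 0.25 from P10 to P15 (limma adjusted p = 1.20e-05). In KO it was already lower than at P0 by 0.74 ± 0.25 at P10 (0.0215), through replicates 2 and 3 of that group, and fell by a further 0.84 ± 0.25 to P15 (0.00853). The P10 call was lost without KO P0 replicate 1 or 4 or KO P10 replicate 2 or 3, at -0.54 (0.172) without KO P10 replicate 2, and without the arrays in doubt the difference was -0.08 (0.947). In the fit of only the groups compared its adjusted p was 0.0940. The step from P10 to P15 in KO moved with which P10 arrays were kept. It was -0.51 (0.124) without KO P10 replicate 1, the array at 10.54, and -1.51 (0.00775) without the arrays in doubt, which leaves only that array at P10. With array weights it was -0.55 (0.0146), and in the fit of only the groups compared it kept its value with an adjusted p of 0.0715.

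Id2 had the largest rise. WT glands read 9.97, 10.96, 10.51 and 10.91 at P0, 10.96, 11.21 and 11.63 at P3, and 11.81, 11.54, 11.30 and 11.72 at P7. They read 11.35, 11.70 and 11.89 at P10 and 12.06, 12.19, 12.14 and 11.66 at P15. From P7 on every pregnant array lay above every P0 array, and at P3 the lowest array lay level with the highest P0 array to 2 decimals. Id2 was higher than at P0 by 0.68 ± 0.21 at P3 (limma adjusted p = 0.0214), 1.0 ± 0.19 at P7 (0.000340), and 1.06 ± 0.21 at P10 (0.000940). By P15 it had risen by 1.43 ± 0.19 (4.01e-07), a fold of 2.69. The P3 call was lost without WT P0 replicate 1 (0.47, 0.107), WT P0 replicate 3 (0.65, 0.0517) or WT P3 replicate 3 (0.50, 0.192). In the fit of only the groups compared neither the P3 nor the P10 call held (limma adjusted p = 0.175 and 0.0602).

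In KO glands Id2 read 10.86, 11.01, 10.94 and 11.55 at P0, 11.83, 11.76 and 11.79 at P10, and 12.08, 11.74, 12.13 and 11.45 at P15. The P10 arrays lay above all P0 arrays, while 1 P15 array lay below the highest of them. It rose by 0.71 ± 0.21 at P10 (limma adjusted p = 0.00984) and 0.76 ± 0.19 at P15 (0.00164), and the differences of 0.22 at P3 and 0.42 at P7 were not called (0.513 and 0.114). Both calls held when any 1 array was left out. Without the arrays in doubt the P10 value was 0.74 with an adjusted p of 0.208, from 1 KO array, assumed to vary like the other groups. The F test gave an adjusted p of 0.281, so the 2 courses are not shown to differ.

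Myc rose in WT glands in much the same order of stages. The WT arrays read 9.26, 10.47, 9.60 and 9.30 at P0, 10.05, 10.09 and 10.73 at P3, and 10.94, 10.81, 10.62 and 10.70 at P7. They read 10.54, 10.92 and 11.18 at P10 and 10.71, 11.13, 10.74 and 11.05 at P15. WT P0 replicate 2, at 10.47, lay within the P3 group and the other 3 below it, and from P7 no array overlapped P0. Myc was higher than at P0 by 0.64 ± 0.21 at P3 (limma adjusted p = 0.0371), 1.11 ± 0.20 at P7 (0.000183), 1.22 ± 0.21 at P10 (0.000315), then by 1.25 ± 0.20 at P15 (5.59e-06). The P3 call was lost without WT P0 replicate 1, 3 or 4, without WT P3 replicate 3 (0.42, 0.296) and without the arrays in doubt (0.52, 0.147). It was also lost with all probe sets tested and with median centring (both 0.0512), and in the fit of only the groups compared neither the P3 nor the P10 call held (0.266 and 0.0644).

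KO glands read 9.82, 10.40, 10.39 and 10.69 for Myc at P0, 10.98, 10.97, 10.85, 10.66 and 10.90 at P7, and 10.97, 10.76, 10.66 and 10.86 at P15. One array at each of P7 and P15 lay just below the highest P0 array. Myc was higher than at P0 by 0.55 ± 0.19 at P7 (limma adjusted p = 0.0451) and 0.49 ± 0.20 at P15 (0.0493), both close to the threshold. The P7 call was lost in 12 of 37 fits that left out 1 array, with values from 0.38 to 0.67, and the P15 call in 27 of 37, with values from 0.32 to 0.61. Without the arrays in doubt they were 0.55 (0.0745) and 0.54 (0.0605), and without KO P0 replicate 1, the lowest KO P0 array, they were 0.38 and 0.32. Neither was called without the filter on dim genes (0.0509 and 0.0555), with all probe sets tested (0.0589 and 0.0607) or with median centring (0.0762 and 0.144). The F test for Myc gave an adjusted p of 0.187, 0.0113 without WT P0 replicate 2 and 0.0099 with array weights.

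By successive steps, few of the 9 genes were called before P10. From P3 to P7, 1 was called higher in WT (Cdkn1c, beside 10% of all genes called and 5.24% higher) and 2 in KO (Cdkn1b and Cdkn1c, beside 16.9% and 9.56%). From P7 to P10, limma called 0 in WT (0.208% of all genes, with 1 of the 9 at an unadjusted p below 0.05, beside 2003 of all genes). In KO it called 2, Ccnd3 higher and Cdkn1c lower, beside 24% of all genes called, 12.3% higher and 11.7% lower. From P10 to P15, 3 were lower in WT (Ccnd2, Cdkn1c and Cdkn2c, beside 39.6% called and 22.5% lower) and 3 in KO (Ccnd2, Ccnd3 and Cdkn2c, beside 32.1% and 16%). The P15 arrays did not overlap those of P10 for 3 of the 9 in WT and 3 in KO, beside 46.4% and 33.8% of all genes. Ccnd1, Ccne1, Id2 and Myc were called in none of these steps in either genotype.

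Over the 10 group means, Id2 and Myc had a Pearson r of 0.94 and Ccnd2 and Cdkn2c one of 0.84. These points share the same glands and arrays, so the values are a description. By the same measure, the tested genes most like each gene were Ticrr (0.98) and Skp2 (0.97) for Ccnd1, Fam126a (0.99) and Serpina3n (0.98) for Ccnd2, and Leprotl1 (0.98) and Ccm2 (0.98) for Ccnd3. Those most like Ccne1 were Tcf19 and Rpl27 (both 0.95), those most like Cdkn1b were Zfp740 (0.96) and Bach2 (0.95), and those most like Cdkn1c were Cep112 and AU018091 (both 0.97). Gstm2 and Clmp (both 0.99) were most like Cdkn2c, Muc15 and Sap30 (both 0.97) most like Id2, and Sap30 (0.97) and Wfdc18 (0.94) most like Myc. Skp2 encodes a subunit of the ubiquitin ligase that marks p27Kip1 for destruction and stood on the list of G1/S genes used below.

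Setting KO against WT at each stage asks whether loss of PTP1B went with another level of these genes. Limma called 0 of the 9 in nulliparous glands (1.7% of all genes called), 0 at P3 (0.119%), 0 at P7 (0.00593%) and 0 at P15 (11.1%). By unadjusted p below 0.05 limma gave 3, 0, 0 and 1 of the 9 at these stages, beside 3504, 1198, 443 and 4013 of all genes. At P10 it called 2, 1 higher and 1 lower, beside 17.2% of all genes called, 8.1% higher and 9.13% lower. In the mean over the 5 stages it called 0 (2.43%; 0 unadjusted, beside 3007 of all genes). The differences there ran from -0.14 for Cdkn1c to 0.17 for Myc. The variation of the difference between stages was called for 1 of 9, Cdkn1c, beside 18% of all genes.

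**Figure D3:**
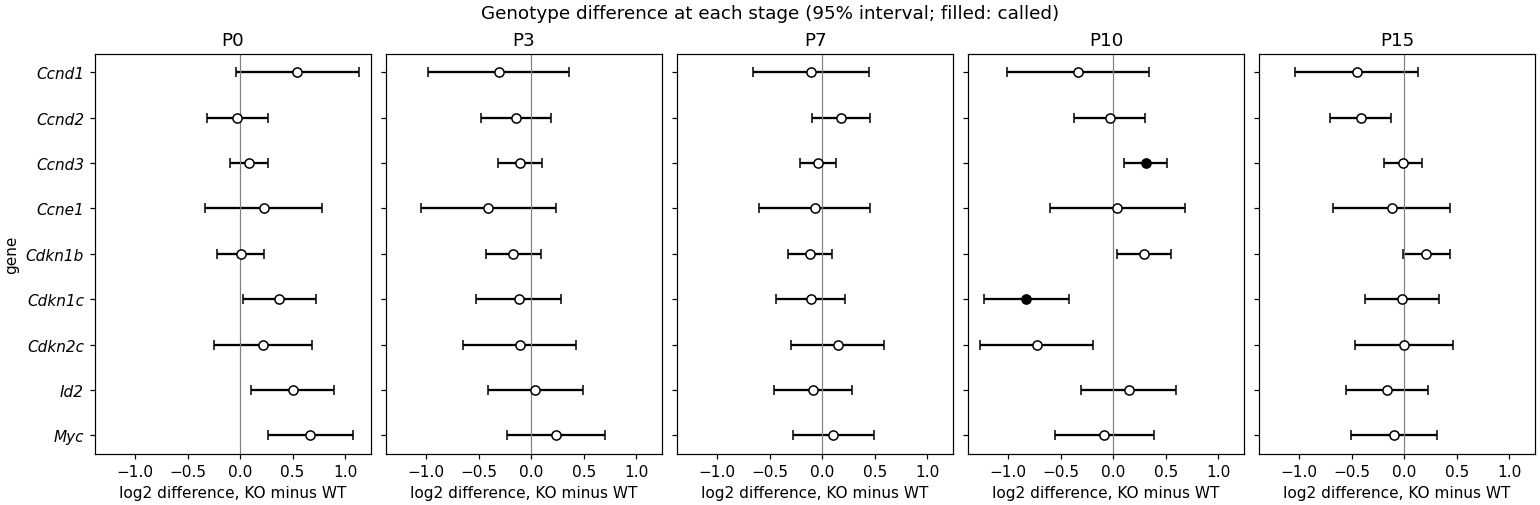
KO minus WT log2 difference (x axis) of the 9 genes (rows) at each stage (panels), with 95% intervals from the limma fit; filled points are called. The 2 filled points are at P10: Ccnd3 at 0.31 and Cdkn1c at -0.83.

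At P0 the largest genotype differences were in Myc, Ccnd1 and Id2, all higher in KO. Myc differed by 0.67 ± 0.20 (limma adjusted p = 0.0720), Ccnd1 by 0.55 ± 0.29 (0.268) and Id2 by 0.50 ± 0.19 (0.150), and none of the 3 was called in this fit. WT P0 replicate 2 was the highest WT array for all 3. Without it the differences were 0.94 for Myc (0.00220), 0.95 for Ccnd1 (0.0158) and 0.62 for Id2 (0.0441), all called. Myc was also called without KO P0 replicate 1, at 0.84 (0.0270), with each array centred on its median, at 0.70 (0.0437), and with array weights, at 0.78 (0.0124). Array weights gave a call for Ccnd1 too, at 0.77 (0.0491).

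List scores moved with these P0 values. The 20 pan-epithelial genes had scores of 0.46 in WT P0 replicate 2 and -0.92, -0.55 and -0.43 in the other WT P0 arrays, against -0.33, 0.36, 0.21 and 0.29 in KO. The score of 29 S phase and mitosis genes was -0.13 in that array and -1.51, -1.34 and -0.98 in the others, against -0.69, -0.62, -0.21 and 0.89 in KO. So the array with the highest Myc, Ccnd1 and Id2 of its group was also the highest of its group by both scores. Their part in the P0 differences was not tested.

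At P10, Cdkn1c was lower in KO by 0.83 ± 0.20 (a difference of -0.83, limma adjusted p = 0.00438) and Ccnd3 higher by 0.31 ± 0.10 (0.0321). Both pairs of groups were apart, as 25.7% of all genes tested were at P10. Cdkn2c differed by -0.73 ± 0.26 and Cdkn1b by 0.29 ± 0.13, without a call in this fit (0.0543 and 0.108). Cdkn2c was called after quantile normalisation (-0.73, 0.0417), with median centring (-0.86, 0.0179) and with array weights (-0.91, 0.000281), and Cdkn1b with array weights (0.42, 0.000722). The Cdkn1c call was lost without KO P10 replicate 2 (-0.66, 0.0690). Fitted on only the 2 groups compared, limma called neither Cdkn1c (0.184) nor Ccnd3 (0.189), beside 0.00593% of all genes. The Ccnd3 call was lost without WT P10 replicate 2 or 3 or KO P10 replicate 2 or 3, with values from 0.25 (0.180) to 0.36 (0.0618), and with each array centred on its median it was 0.17 (0.216). Centring moved the median of all genes in this comparison by -0.14. Without KO P10 replicate 1, Cdkn2c (-1.06, 0.00302) and Cdkn1b (0.44, 0.0107) were called as well, and Cdkn2c was called in 4 of the 37 fits that left out 1 array.

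Lymphocyte markers moved with this comparison: 9 of 9 tested B lymphocyte genes and 9 of 9 tested T lymphocyte genes were called higher in KO at P10, beside 8.1% of all genes. The B scores were -0.36, 4.22 and 4.13 in KO replicates 1 to 3 and -0.36 to -0.25 in WT, and the T scores were 0.21, 3.17 and 3.26 in KO and -0.21 to -0.09 in WT. KO replicate 1, with scores near those of WT, read 10.10 for Ccnd3, above the WT arrays at 9.72 to 9.91, and 7.94 for Cdkn1c, below the WT arrays at 8.43 to 8.52. For Cdkn2c it read 10.54, inside the WT range of 10.44 to 10.87, where replicates 2 and 3 read 9.47 and 9.61.

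Without the arrays in doubt, KO P10 holds this 1 array, assumed to vary like the other groups, and limma called 0 of the 9 genes, beside 0.00593% of all genes. The differences were then 0.28 for Ccnd3, -0.52 for Cdkn1c and -0.06 for Cdkn2c, each with an adjusted p of 1.0. Other lists also differed at P10: 9 of 14 fibroblast and matrix genes, 6 of 10 endothelial genes and 4 of 12 white adipocyte genes were called lower in KO, beside 9.13% of all genes. What part each had in the P10 differences was not tested.

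**Figure D4:**
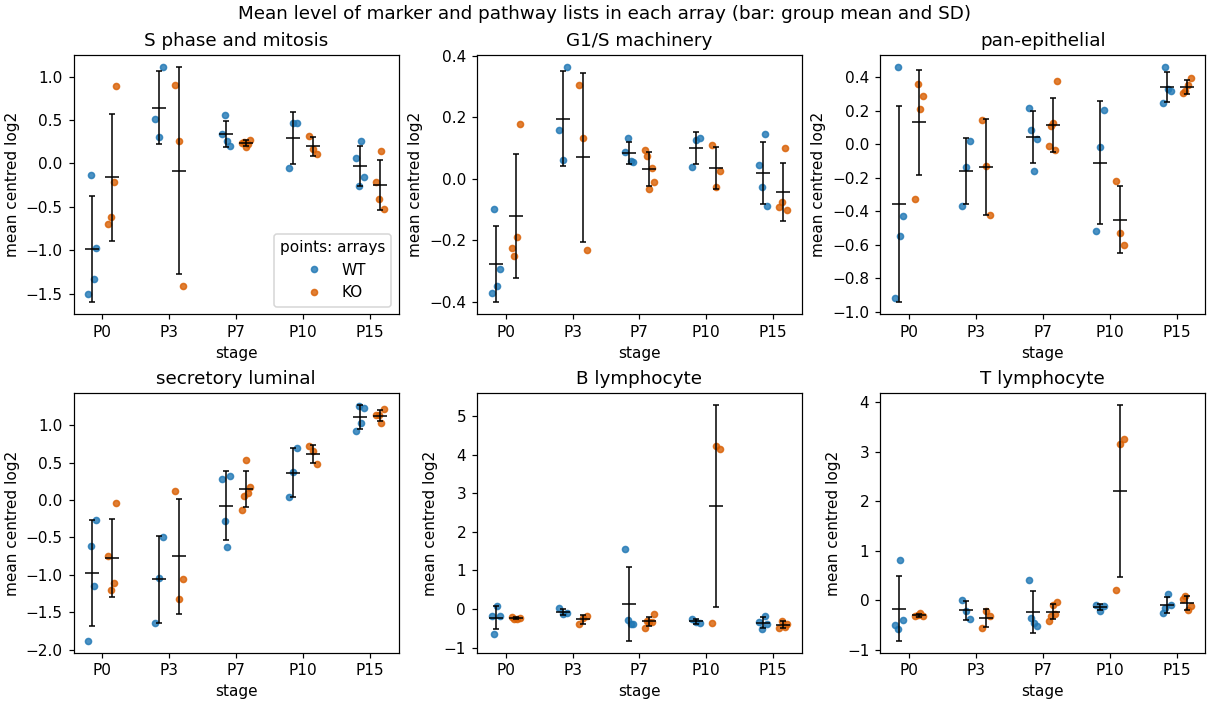
Mean level of 6 marker and pathway lists (y axis, log2 centred on each gene's mean over the arrays) in each array by stage (x axis) and genotype (WT blue, KO orange), with group mean and SD. The B and T lymphocyte scores of 2 KO P10 arrays stand above 3, and the S phase and mitosis scores of WT P0 lie from -1.51 to -0.13.

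The genotype difference of Cdkn1c ran from 0.37 ± 0.17 at P0 to -0.83 ± 0.20 at P10, a span of 1.20, and its F test over stages gave an adjusted p of 0.0224. Without WT P10 replicate 3, KO P10 replicate 2 or KO P10 replicate 3 the adjusted p was 0.0523, 0.0915 and 0.0521, and without the arrays in doubt it was 0.131. The other 8 genes had adjusted p from 0.127 (Cdkn1b) to 0.745 (Ccne1). At P15 the difference nearest the threshold was that of Ccnd2, lower in KO by 0.42 ± 0.14 (a difference of -0.42, limma adjusted p = 0.0567). Its KO arrays (10.04, 9.55, 9.51 and 9.38) overlapped the WT arrays (10.40, 9.74, 10.05 and 9.95), and it was called in 4 of 37 fits that left out 1 array, at -0.51 (0.0235) without WT P15 replicate 2 and -0.55 (0.0126) without KO P15 replicate 1. It was also called after quantile normalisation, at -0.43 (0.0364), and with the replicate block, at -0.42 (0.0178). Without KO P15 replicate 3, the array at a WT level of Ptpn1, the difference was -0.38 (0.127). The second probe set of Cdkn1b was higher in KO at P15 by 0.60 (adjusted p = 0.0447 in the fit of all probe sets), where the first gave 0.21 ± 0.11 (0.251), and 0.30 (0.0481) with each array centred on its median.

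Other genes of G1 control were taken from a list of 28 kinases, E2F and Rb family genes, further inhibitors and ubiquitin ligase subunits. In WT glands against P0, 15 were called higher at P3, beside 11.6% of all genes. At P7, 13 were higher and 1 lower (15.5% and 13.8% of all genes), at P10 also 13 and 1 (11.7% and 9.71%), and at P15 13 and 5 (21.6% and 27.3%). At P3 the largest rises were those of E2f8, a repressor of the E2F family (2.09 ± 0.43, limma adjusted p = 0.00134), Ccne2, the second cyclin E gene (1.65 ± 0.43, 0.00711), and Cks1b, a partner of Skp2 (1.13 ± 0.17, 0.000113). At P15 the largest rises were those of E2f8 (1.39), the phosphatase gene Cdc25a (1.05) and E2f3 (1.04). The largest falls there were in Cdkn2b (-0.74), an Ink4 inhibitor like Cdkn2c, E2f6 (-0.53) and Cdkn2d (-0.36), the third Ink4 gene to be called lower.

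In KO glands, 4 of the 28 were called higher at P3, P7 and P10, beside 7.8%, 7.84% and 14.4% of all genes. At P10 the share of the list was thus near that of all genes. At P15, 7 were higher and 2 lower, beside 19.5% and 21.8%, so the share that was higher was near that of all genes. The largest P15 rises were in Cdc25a (0.93), Fbxw7 (0.74), which encodes a ubiquitin ligase subunit that targets cyclin E and Myc, and E2f3 (0.45), and the falls in Cdkn2b (-0.59) and Cdkn2d (-0.26). Cdkn2b, Cdkn2c and Cdkn2d were thus all called lower at P15 in both genotypes.

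The next list held 29 measured genes of S phase and mitosis. Counts for the gene lists are given for the fit of all arrays only. For WT at P3 against P0, that fit called 18.1% of all genes. The share was 6.36% without WT P3 replicate 3 and 2.83% with only the groups compared. How many of the 29 would stay called in those fits was not tested. In WT glands 28 were called higher at P3 than at P0, then 25 by day 7, 25 by day 10 and 18 by day 15, beside 11.6%, 15.5%, 11.7% and 21.6% of all genes, with median differences of 1.58, 1.30, 1.17 and 0.93, against -0.03, -0.05, -0.02 and -0.06 over all genes tested. In KO glands limma called 0 at P3, 1 at P7 (Cenpf, 0.95 ± 0.29, adjusted p = 0.0220), 0 at P10 and 0 at P15, with medians of 0.09, 0.41, 0.34 and -0.06. At an unadjusted p below 0.05 the KO counts were 0, 3, 1 and 2, beside 5333, 4886, 6865 and 8101 of all genes. KO P3 arrays had scores of 0.91, 0.26 and -1.41 and KO P0 arrays -0.69, -0.62, -0.21 and 0.89, so these groups overlapped widely. Between genotypes limma called 0 of the 29 at P0 and 0 at P3, with median differences of 0.76 and -0.77. At an unadjusted p below 0.05 there were 23 and 12 of them, beside 3504 and 1198 of all genes. In the F test over stages limma called 0 of the 29, so the WT and KO courses of this list are not shown to differ. There 11 had an unadjusted p below 0.05, beside 5821 of all genes.

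Among 17 partners and relatives of Myc and Id2, 6 were called higher and 5 lower in WT glands at P15, and 2 higher and 6 lower in KO. Of all genes, 48.8% were called in WT (21.6% higher and 27.3% lower) and 41.3% in KO (19.5% and 21.8%), so the 8 of 17 called in KO are near the share of all genes. The 2 other inhibitors of the Id family that fell in WT, Id1 (-1.16) and Id3 (-1.15), also fell in KO (-1.09 and -1.35), opposite in sign to Id2, while Id4 rose in WT (1.20). Mycl fell in both genotypes (-0.86 in WT and -1.10 in KO), and Mlx, a partner of the Mondo and Mad proteins, rose in both (0.44 and 0.60). In WT the third largest rise was that of Mga (0.48), and in KO Zbtb17, which encodes the Myc partner Miz1, rose by 0.54.

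Cell type lists moved with the P15 changes. The secretory luminal score rose from between -1.88 and -0.26 in WT P0 arrays to between 0.93 and 1.26 at P15, and in KO from between -1.20 and -0.04 to between 1.03 and 1.22. The hormone-sensing luminal score lay at 0.27 to 0.98 (WT) and 0.35 to 0.85 (KO) at P0 and at -0.95 to -0.79 and -0.96 to -0.73 at P15. In the white adipocyte list 12 of 12 genes were called lower at P15 in WT and 10 of 12 in KO, and in the fibroblast and matrix list 7 of 14 in WT and 14 of 14 in KO, beside 27.3% and 21.8% of all genes. These scores went the way of Id2 and Myc (secretory) or of Ccnd2 and Cdkn2c (the others) between P0 and P15, and their part in the changes of the 9 genes was not tested.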

How the data were processed

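Mammary gland RNA was amplified and labelled for 37 Affymetrix whole-transcript arrays, per the labels' protocols. The authors deposited 1 log2 intensity per probe set and array, with array medians from 6.52 to 6.79. The submitters' processing notes name affy, while for the background correction and normalisation the method is not given in the sources used here. Of 34760 probe sets, 21640 carried 1 symbol, 1321 several and 11799 none, which gave 19937 genes, 19918 of them matched in RefSeq. For a gene with several probe sets (954 genes) the one with the highest mean over the 37 arrays was used.

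Genes above 4.96, the 25th percentile of all values, in 3 or more arrays were tested (16865, with 3072 left out). Limma 3.58.1 in R 4.3.3 was fitted to the 37 arrays with 1 mean per genotype and stage, and Benjamini-Hochberg adjustment ran over all genes tested in a comparison, with a threshold of 0.05. Errors are SE from this fit, and a fold is 2 raised to the size of the log2 difference. The variation of the genotype difference between stages was tested by a moderated F with 4 numerator degrees of freedom. Array data give no read depth, so the number of arrays limits the precision.

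Named were the 9 genes, Ptpn1, for each pathway list the called genes with the 3 largest rises and falls in the P15 comparisons and in WT at P3, Cenpf as the single call of its list, and the 2 genes most like each of the 9 by Pearson r over group means. Members and lists were chosen with earlier results of these data known. Whether replicate numbers pair the arrays was not settled: of 18 same-numbered pairs, 9 had a correlation of deviations over 0.1. In 8 of the pairs the KO array of the same number was the closest. No 2 arrays held the same values, and the labels give no batch. Alternatives were the filter, all probe sets, quantile normalisation, median centring, a trended robust fit, array weights, a replicate block, only the groups compared, the mean of a gene's probe sets, the arrays in doubt and each array left out. The fit was tested on simulated data.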

Additional observations from a re-analysis of the deposited data

Results flagged for a closer look

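In the fit of all 37 arrays the KO minus WT difference of Cdkn1c was called as varying between the 5 stages, as 18% of all genes were. Limma's F test gave an adjusted p of 0.0224, with differences from 0.37 at P0 to -0.83 at P10. The F test call was lost without WT P10 replicate 3 (0.0523), KO P10 replicate 2 (0.0915) or KO P10 replicate 3 (0.0521), and with the replicate block. Without the arrays in doubt, which leaves 1 KO P10 array, the span of the differences was 1.03. None of the other 8 genes passed this test at the threshold. In the groups of 4 or 5 arrays, 0 of 54 sets of member values had an array far from the rest by Dixon's criterion, where chance gives about 1 in 20.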

How the results depend on the processing

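Of 8865 values of the 9 genes under the alternatives, 8652 kept their side of the threshold, 72 gained a call and 141 lost one. None that was called in either fit changed sign, while 128 that were called in neither did. The counts of members called moved by over 1.5 times as follows. No share of all genes called is given for the filter, all probe sets, mean probe sets, array weights or the replicate block. Nor is one given for single arrays left out, apart from WT at P3. Those counts are thus not set against all genes. Without the filter, 1 was called in KO from P0 to P7. With all probe sets tested, 1 was called in KO from P0 to P7 and 1 from P3 to P7, and the mean of a gene's probe sets gave 1 for the latter. Quantile normalisation gave 1 for KO minus WT at P15, beside 2542 of all genes called (1873 as deposited). Median centring gave 1 at P0 and 1 at P15 for KO minus WT, beside 439 and 2648 of all genes called (286 and 1873 as deposited). It gave 2 in KO from P0 to P3 and 5 in WT from P10 to P15, beside 3674 and 8000 (3174 and 6679 as deposited). Array weights gave 2 at P0, 4 at P10 and 1 in the mean over stages for KO minus WT, 2 in WT from P3 to P7, 5 in WT from P10 to P15, 4 in KO from P7 to P10 and 6 for the variation between stages. The replicate block gave 1 at P15 for KO minus WT (Ccnd2, -0.42, limma adjusted p = 0.0178) and 1 in KO from P0 to P7. It gave 2 for the variation between stages (that of Cdkn1c then had an adjusted p of 0.0653), and a call for Cdkn2c at P10 (-0.73, 0.0127). Whether the numbers pair the arrays was not settled by the correlations of same-numbered arrays (from -0.52 to 0.38), with 8 arrays closest to their own number. With only the groups compared, limma called 0 at P10 for KO minus WT (0.00593% of all genes). In WT it called 0 from P0 to P3, from P0 to P10 and from P3 to P7, beside 2.83%, 2.65% and 11.8%. In KO it called 1 from P0 to P10 and 1 from P3 to P7, beside 10.8% and 12.1%. Without the arrays in doubt it called 1 in KO from P0 to P7 and 1 from P3 to P7, beside 17% and 16.8% of all genes. The counts for KO minus WT at P10 and for the variation between stages fell as well, as did those in KO from P0 to P10 and from P7 to P10. These rest on 1 KO P10 array, and fewer of all genes were called in each. With each array left out in turn the counts for KO minus WT ran from 0 to 3 at P0, 0 to 4 at P10, 0 to 1 at P15 and 0 to 3 for the variation between stages. Against P0 they ran in WT from 0 to 4 at P3, 5 to 7 at P7, 3 to 4 at P10 and 5 to 6 at P15, and in KO from 1 to 3 at P7, 2 to 5 at P10 and 4 to 6 at P15. By steps they ran in WT from 0 to 1 (P3 to P7) and 3 to 4 (P10 to P15), and in KO from 0 to 2, 2 to 4 and 3 to 4. The cause of these shifts was not tested. Median centring moved the median of all genes by -0.19 in WT and -0.14 in KO from P0 to P15, by -0.16 in KO from P0 to P10 and by -0.20 in WT from P10 to P15, and quantile normalisation by -0.14 and -0.13 in the WT comparisons of P15 with P0 and P10. The number of arrays, 3 to 5 a group, limits all of these values.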
